A study of Mus musculus with 4 samples.

Results

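The genes described here are 10 genes that are commonly read as signs of reactive astrocytes: Gfap, Vim, Serpina3n, Lcn2, Cd44, Osmr, Steap4, Timp1, Cp and Stat3. They were taken by their gene names from a count table of 29300 genes, with earlier results of these data known. All 10 had enough counts to be tested. The table came from whole hippocampus of male wild-type C57BL/6 mice aged 7 to 8 months, collected on day 1 after the operation. The 2 control (sham) mice received isoflurane anesthesia and the analgesic tramadol but no fracture. The 2 surgery mice received the same anesthesia and analgesia together with a fracture of the tibia, so that both groups share anesthesia and analgesia and no untreated mice were analysed here. Poly(A) RNA was sequenced, and the comparison asks how these genes differed in the hippocampus between surgery and control mice.

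Astrocytes are the glial cells that support synapses, take up glutamate and ensheathe blood vessels. After injury, infection or inflammation they can enter reactive states, in which intermediate filaments, secreted acute-phase proteins and cytokine receptors are typically made in larger amounts. A central route into these states runs from cytokines of the interleukin-6 family through receptors that contain gp130, to JAK kinases and the transcription factor STAT3. Several of the 10 genes are not made by astrocytes alone, since microglia, vessel cells, fibroblasts, choroid plexus or neutrophils can make them. In RNA from whole tissue, fewer cells of a type and less RNA per cell cannot be told apart.

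Total counts ran from 15763432 to 18573386 per mouse. Levels are given as CPM, counts scaled to a common library size, with edgeR's TMM factors, and calls needed an adjusted p under 0.05 and a fold change no smaller than 1.5 or no larger than 0.67. Across the 17144 genes tested, the edgeR quasi-likelihood test called 1158 higher and 386 lower in surgery mice, and with scaling by library totals alone 1377 and 224. The log2 fold change ran with the GC content of the transcripts, with a median of 0.60 in the eighth of genes lowest in GC and -0.34 in the eighth highest. Values with the length and GC correction come from the same edgeR test after smooth trends of the counts with the length and the GC content of transcripts were removed from every library. Control mouse 1 stood apart in the choroid plexus markers, of which 7 of 7 were tested: their summed level was 131 CPM in that mouse, 5449 in control mouse 2, and 2042 and 3472 in the surgery mice. Surgery mouse 2 had the highest level of 6 of 6 markers of meningeal fibroblasts, and surgery mouse 1 the lowest summed neutrophil markers. Neuron markers (6 of 6 tested) summed to 10856 and 10563 CPM in control mice and were lower in both surgery mice, at 9569 and 9322 CPM. Much of this lay in Camk2a and Slc17a7, with log2 fold changes of -0.26 and -0.39 (-0.06 and -0.09 with the length and GC correction), while Snap25 and Syt1 were at 0.01 and 0.02 (-0.42 and -0.25 with it). All 15 astrocyte markers that are not tied to reactivity were tested, and their summed level was 7383 and 7584 CPM in control mice against 7848 and 7619 CPM in surgery mice.

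Of the 10 genes, Cd44 alone passed the call and rose, 1.91-fold, and 0 were called lower by edgeR. Of all genes tested, 6.75% were called higher and 2.25% lower, 9.01% in either direction, so that 1 of 10 is close to the background. An unadjusted p under 0.05 was found for 5 of the 10, of which 3 had a positive log2 fold change (Cd44, Osmr and Cp) and 2 a negative one (Gfap and Serpina3n). Over all genes tested, 39.4% had an unadjusted p under 0.05. DESeq2, run as an alternative, called 1 gene higher, Osmr in place of Cd44, and again 0 lower. The median log2 fold change of the 10 genes was 0.20, against 0.01 over all genes tested.

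The 2 groups did not overlap for 5 of the 10 genes, with 3 higher and 2 lower in both surgery mice. Among all genes tested, 65.5% did not overlap, with 33.2% higher and 32.2% lower. With 2 mice per group an exact permutation of a single gene cannot give a two-sided p below 0.333, so that the p-values of edgeR and of DESeq2 depend on what each tool takes from the spread of other genes.

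**Figure D1:**
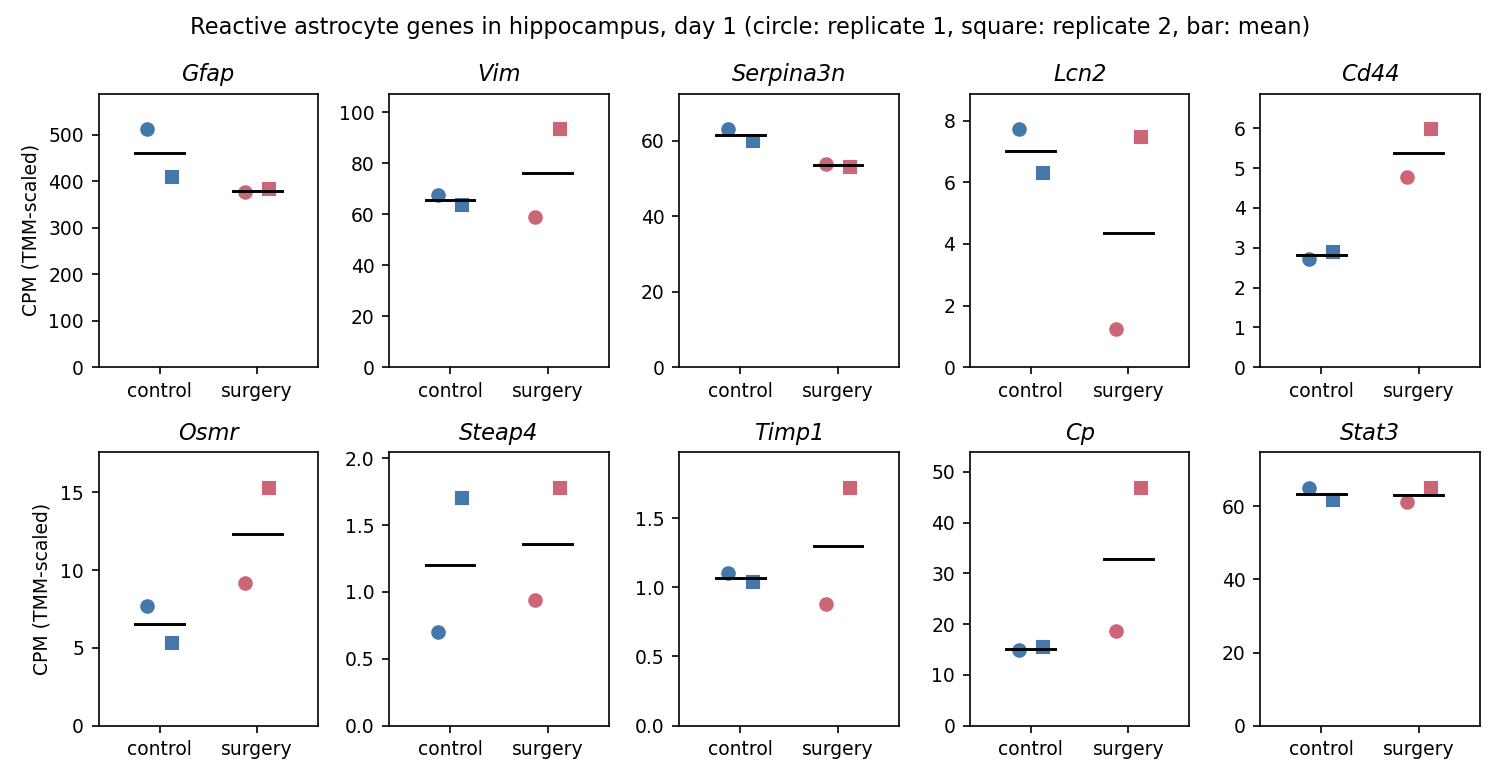
Level of each of the 10 genes in CPM, on axes that start at 0, in the 2 control mice (blue) and the 2 surgery mice (red), with circles for replicate 1, squares for replicate 2 and bars for the group means. Cd44, Osmr and Cp were higher in both surgery mice than in both control mice, Gfap and Serpina3n were lower in both, and the other 5 genes overlapped.

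Promoter sequences are shown for 3 of the genes, because STAT3 is one of the 10 and is known to bind promoters at a palindromic motif. RefSeq windows (GRCm38.p6, the assembly behind mm10) that run from 250 bases before to 50 bases after the annotated transcription start were found for all 10 genes, 11 windows in all. The motif TTCNNNGAA, which reads the same on both strands, was found in 2 of the 11 windows, those of Gfap and Steap4, and in 8.3% of all 32851 windows. The window of Gfap lies on the minus strand at chr11:102897151-102897450, with a match that begins 2 bases before the annotated start and spans it. The window of Steap4 lies on the plus strand at chr5:7960222-7960521, with a match that begins 116 bases before the start. That of Cd44, the called gene, lies on the minus strand at chr2:102901616-102901915. Capitals mark the motif, and a window with none shows only that these letters are not in it.
Gfap: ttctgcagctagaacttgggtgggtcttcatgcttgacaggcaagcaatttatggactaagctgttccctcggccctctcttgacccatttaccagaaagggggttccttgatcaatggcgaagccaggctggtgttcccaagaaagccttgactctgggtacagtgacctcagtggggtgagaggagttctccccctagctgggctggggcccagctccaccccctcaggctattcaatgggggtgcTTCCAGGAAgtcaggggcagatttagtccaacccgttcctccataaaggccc
Steap4: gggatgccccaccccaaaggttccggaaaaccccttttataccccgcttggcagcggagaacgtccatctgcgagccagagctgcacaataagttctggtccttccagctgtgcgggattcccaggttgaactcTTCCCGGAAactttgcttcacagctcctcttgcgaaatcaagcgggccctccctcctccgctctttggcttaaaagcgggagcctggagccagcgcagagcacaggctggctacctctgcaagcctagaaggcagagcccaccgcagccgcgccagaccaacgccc
Cd44: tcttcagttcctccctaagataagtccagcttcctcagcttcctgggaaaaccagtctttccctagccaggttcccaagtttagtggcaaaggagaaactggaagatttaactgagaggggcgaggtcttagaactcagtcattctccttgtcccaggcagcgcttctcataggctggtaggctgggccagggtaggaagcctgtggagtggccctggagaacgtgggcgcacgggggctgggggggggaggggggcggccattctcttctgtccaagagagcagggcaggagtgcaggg
Neither Gfap nor Steap4 was called higher or lower.

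The intermediate filament genes, which are the classical histological marks of reactive astrocytes, gave no call. Gfap (ENSMUSG00000020932, mm10 chromosome 11, 102887336 to 102900912, minus strand) encodes the main filament protein of astrocytes. Its level was 512 and 409 CPM in control mice against 377 and 383 CPM in surgery mice. Both surgery mice were below both control mice, and the control mice differed from each other by more than the surgery mice did. The group means were 461 ± 72.7 and 380 ± 4.69 CPM (SD, n = 2 each), a fold change of 0.825. On the log2 scale the difference was -0.28 (standard error 0.10), with an edgeR quasi-likelihood, Benjamini-Hochberg adjusted p of 0.099 (alternatives 0.019 to 0.81). Control mouse 1 carried part of this difference, since the log2 fold change was -0.11 without it and -0.43 without control mouse 2, and with the trends of transcript length and GC content removed it was -0.06.

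Vim encodes vimentin (ENSMUSG00000026728, mm10 chromosome 2, 13573927 to 13582826, plus strand), a filament protein that reactive astrocytes share with vessel cells and fibroblasts. Its level was 67.7 and 63.7 CPM in control mice against 59.1 and 93.4 CPM in surgery mice. Surgery mouse 1 lay below both control mice and surgery mouse 2 above both, so that the groups overlapped. This gave a log2 fold change of 0.22 (standard error 0.20, edgeR adjusted p = 0.46, from 0.0084 to 0.76 over the alternatives). It was 0.50 without surgery mouse 1 and turned to -0.14 without surgery mouse 2. Per kilobase of transcript, Gfap averaged 99.7 CPM over the 4 mice and Vim 15.0 CPM, the first and the third of the 10 genes in level, with Serpina3n between them at 27.8 CPM.

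The secreted proteins did not move as a group. Serpina3n (ENSMUSG00000021091, mm10 chromosome 12, 104406729 to 104414329, plus strand) encodes a serine protease inhibitor that is a widely used marker of reactive astrocytes. Its level was 63.0 and 59.9 CPM in control mice against 53.8 and 53.1 CPM in surgery mice. All 4 values were tightly grouped within their condition and the groups did not overlap, with surgery mice the lower. The fold change was 0.870, a log2 fold change of -0.20 (standard error 0.07) with an edgeR adjusted p of 0.090 (from 0.079 to 0.75 over the alternatives), and -0.05 with the length and GC correction. Of its 75 nt windows of transcript sequence, 1.46% also occur in Serpina3g or Serpina3e-ps, so that few of its reads could have been split between copies.

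Lcn2 encodes lipocalin 2, an iron-siderophore binding protein of the acute phase that is also stored in neutrophil granules (ENSMUSG00000026822, mm10 chromosome 2, 32384633 to 32388252, minus strand). It had 133 and 115 counts in control mice against 20 and 126 counts in surgery mice, or 7.72, 6.29, 1.25 and 7.47 CPM. Surgery mouse 1 was low and the other 3 mice were alike, with surgery mouse 2 5.95 times above surgery mouse 1. Over both groups the log2 fold change was -0.66 (standard error 0.60, edgeR adjusted p = 0.46). It was 0.08 without surgery mouse 1 and -2.46 without surgery mouse 2, where the edgeR adjusted p was 0.0065, the lowest of the alternatives, which reached 0.84. Surgery mouse 1 was also the lowest in neutrophil markers, of which 4 of 8 were tested. Their summed level was 10.1 and 15.4 CPM in control mice against 2.57 and 10.3 CPM in surgery mice, with Camp, Elane and Ly6g at 0 counts in surgery mouse 1, where Mpo, with 8 counts, was not lower than in the control mice (6 and 5). The 1 marker called, lower (2.25% of all genes tested), was Ltf, lactoferrin, with 2.61 and 3.45 CPM in control mice against 0.502 and 1.42 CPM in surgery mice. Its log2 fold change was -1.63 (edgeR adjusted p = 0.039), and from -2.57 to -1.10 leaving out 1 mouse at a time. The call was lost by DESeq2 (adjusted p = 0.056) and with the length and GC correction (edgeR adjusted p = 0.12). The part of neutrophil RNA in the level of Lcn2 was not tested.

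Timp1 encodes an inhibitor of matrix metalloproteinases (ENSMUSG00000001131, mm10 chromosome X, 20870166 to 20874735, plus strand). Few reads fell on it, with 19 and 19 counts in control mice against 14 and 29 counts in surgery mice. The groups overlapped, since the control values of 1.10 and 1.04 CPM lay between 0.878 CPM in surgery mouse 1 and 1.72 CPM in surgery mouse 2. Its log2 fold change was 0.29 (standard error 0.43, edgeR adjusted p = 0.66, from 0.33 to 0.88 over the alternatives) and -0.28 without surgery mouse 2, so that no direction can be given at this depth.

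Cp encodes ceruloplasmin (ENSMUSG00000003617, mm10 chromosome 3, 19957054 to 20009145, plus strand), a copper-binding ferroxidase that astrocytes carry on their surface and that other cells secrete. Its level was 14.9 and 15.5 CPM in control mice against 18.6 and 46.9 CPM in surgery mice. Both surgery mice were above both control mice, but surgery mouse 2 was 2.52 times surgery mouse 1, a larger gap than that between the group means. The means were 15.2 ± 0.437 and 32.8 ± 20.0 CPM (SD, n = 2 each), a 2.16-fold difference and the largest among the 10 genes. It did not pass the call, with a log2 fold change of 1.11 (standard error 0.39) and an edgeR adjusted p of 0.082 (from 0.00083 to 0.34 over the alternatives). The log2 fold change was 1.61 without surgery mouse 1 and 0.30 without surgery mouse 2, and 0.67 with the length and GC correction. Exons of Cp overlap those of Hps3 on the opposite strand by 108 nt, which limits its count if strand was not used.

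The surface receptors held the called gene. Cd44 (ENSMUSG00000005087, mm10 chromosome 2, 102811141 to 102901665, minus strand) encodes a receptor for hyaluronan that is scarce in resting protoplasmic astrocytes and also made by immune cells and fibroblasts. It had 47 and 53 counts in control mice against 76 and 101 counts in surgery mice, or 2.73, 2.90, 4.77 and 5.98 CPM. Both surgery mice lay above both control mice, and the gap between the groups exceeded that within either. The means were 2.81 ± 0.121 and 5.38 ± 0.862 CPM (SD, n = 2 each). The rise was 0.93 on the log2 scale (standard error 0.24), with an edgeR adjusted p of 0.032 (alternatives 0.025 to 0.13). The direction held without any 1 of the 4 mice, with log2 fold changes from 0.77 to 1.08. The call was lost without control mouse 1, control mouse 2 or surgery mouse 2 (edgeR adjusted p = 0.11, 0.10 and 0.13), by DESeq2 (adjusted p = 0.093), with no filter on low counts (edgeR adjusted p = 0.057), and with the length and GC correction, where the log2 fold change was 0.79 (edgeR adjusted p = 0.12). Among 10 microglia markers, all tested and none at 0 counts, 2 were called higher, where 6.75% of all genes tested were, and 6 had a negative log2 fold change, of which 4 were lower in both surgery mice than in both control mice (32.2% of all genes tested). The first, Itgam, an integrin of myeloid cells, had 2.79 and 2.13 CPM in control mice against 5.46 and 5.57 CPM in surgery mice, and the second, P2ry12, a purine receptor, had 20.0 and 18.7 against 35.5 and 33.9 CPM. With the length and GC correction the log2 fold change of P2ry12 went from 0.84 to 0.26 (edgeR adjusted p = 0.18) and that of Itgam from 1.17 to 1.21 (0.057), and 65.2% of the windows of Itgam also occur in Gm49368. The summed level of the 10 markers was 358 and 345 CPM in control mice against 339 and 355 CPM in surgery mice, and the part of microglia in the level of Cd44 was not tested.

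Osmr encodes the receptor subunit that pairs with gp130 to bind oncostatin M (ENSMUSG00000022146, mm10 chromosome 15, 6813577 to 6874969, minus strand). Its level was 7.72 and 5.31 CPM in control mice against 9.16 and 15.3 CPM in surgery mice. The groups did not overlap, although surgery mouse 1 was closer to control mouse 1 than to surgery mouse 2. The fold change was 1.89 (log2 fold change 0.92, standard error 0.30), almost that of Cd44, but the edgeR adjusted p was 0.066 (from 0.0095 to 0.24 over the alternatives). It passed the call by DESeq2 (adjusted p = 0.040) and without surgery mouse 1 (log2 fold change 1.23, edgeR adjusted p = 0.0095). Without surgery mouse 2 the log2 fold change was 0.50, and with the length and GC correction 0.71.

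Steap4 encodes a metalloreductase of iron and copper that is induced in inflammation (ENSMUSG00000012428, mm10 chromosome 5, 7960457 to 7982213, plus strand). It had 12 and 31 counts in control mice against 15 and 30 counts in surgery mice, or 0.697, 1.70, 0.941 and 1.78 CPM. Replicate 2 was the higher in both groups and the groups overlapped almost fully. The log2 fold change was 0.18 (standard error 0.52, edgeR adjusted p = 0.83, from 0.33 to 0.97 over the alternatives), and it turned to -0.05 with the length and GC correction and to -0.35 without surgery mouse 2. The choroid plexus markers (131, 5449, 2042 and 3472 CPM summed over the 7 genes, with none at 0 counts) were likewise lowest in control mouse 1, and their part in the level of Steap4 was not tested.

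Stat3, the transcription factor on which gp130 receptors converge, did not differ beyond the spread between mice (ENSMUSG00000004040, mm10 chromosome 11, 100885098 to 100939540, minus strand). Its level was 65.1 and 61.8 CPM in control mice against 61.2 and 65.1 CPM in surgery mice. The 2 groups covered the same range. The log2 fold change was -0.01 (standard error 0.08, edgeR adjusted p = 0.96, from 0.19 to 0.96 over the alternatives), and it was 0.15 with the length and GC correction and 0.04 when libraries were scaled by their totals. STAT3 is activated by phosphorylation, which transcript counts do not measure. Exons of Stat3 overlap those of Stat5a on the opposite strand by 72 nt.

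In order of level per kilobase of transcript, averaged over the 4 mice, Gfap (99.7 CPM) was followed by Serpina3n (27.8), Vim (15.0), Stat3 (6.64), Cp (2.51), Lcn2 (2.17), Timp1 (1.33), Osmr (0.775), Cd44 (0.604) and Steap4 (0.405), each in CPM per kilobase. From Cp downwards the range over the 4 mice of each gene overlapped that of the next, whereas Gfap, Serpina3n, Vim and Stat3 were separate from one another and from Cp. The called gene was thus among those of lowest level, and the filaments and Serpina3n were the highest.

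The surgery mice also differed from each other in these genes. Surgery mouse 2 exceeded surgery mouse 1 in 9 of the 10 genes, all except Serpina3n, and had the highest level of the 4 mice in 7. Over all genes tested, 49.6% were higher in surgery mouse 2 than in surgery mouse 1 and 28.4% were highest in surgery mouse 2. In 6 of the 10 genes (Vim, Lcn2, Steap4, Timp1, Cp and Stat3) the surgery mice differed from each other by more than the fitted change. The share of all genes for which this held was not computed, and a fitted change near 0 is easily exceeded. For Stat3 the log2 gap was 0.09 and the fitted change -0.01, where the median gap of all genes tested was 0.14. A gap of over 2 times between surgery mice was found for 2 of the 10, Lcn2 and Cp, and in 3.89% of all genes tested. Between control mice 1 of the 10 had such a gap, Steap4, against 3.56% of all genes.

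The median log2 fold change of the 10 genes was 0.52 without surgery mouse 1 and -0.16 without surgery mouse 2. Other cell types also differed between these mice. The 6 fibroblast markers, all tested and none at 0 counts, summed to 96.1 and 266 CPM in control mice against 132 and 404 CPM in surgery mice. By edgeR 0 of 6 were called and 3 of 6 had an unadjusted p under 0.05, against 9.01% and 39.4% of all genes tested. DESeq2 called Col1a1 and Col3a1 higher (log2 fold change 0.99 and 1.87, adjusted p = 0.038 and 0.021), where it called 903 of all 17144 genes higher. Without Igf2 the other 5 fibroblast markers summed to 63.0 and 66.7 CPM in control mice against 65.1 and 158 CPM in surgery mice. The high sum of control mouse 2 thus came from Igf2, and 60.3% of the windows of Igf2 also occur in Gm49394. The markers of pericytes and smooth muscle (6 of 7 tested, with Tagln at 0 counts in control mouse 2) summed to 174 and 161 CPM in control mice against 191 and 305 CPM in surgery mice, and 1 of them, Rgs5, was called higher (6.75% of all genes tested). Rgs5 lay in the eighth lowest in GC, and its log2 fold change went from 0.73 to 0.31 (edgeR adjusted p = 0.092) with the length and GC correction. Oligodendrocyte markers (6 of 6 tested) were lowest in surgery mouse 2, with sums of 6183 and 5329 CPM in control mice against 6084 and 3927 CPM in surgery mice. The part of these cells in the levels of Vim, Cp, Cd44, Osmr and Timp1, which were highest in surgery mouse 2, was not tested.

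**Figure D2:**
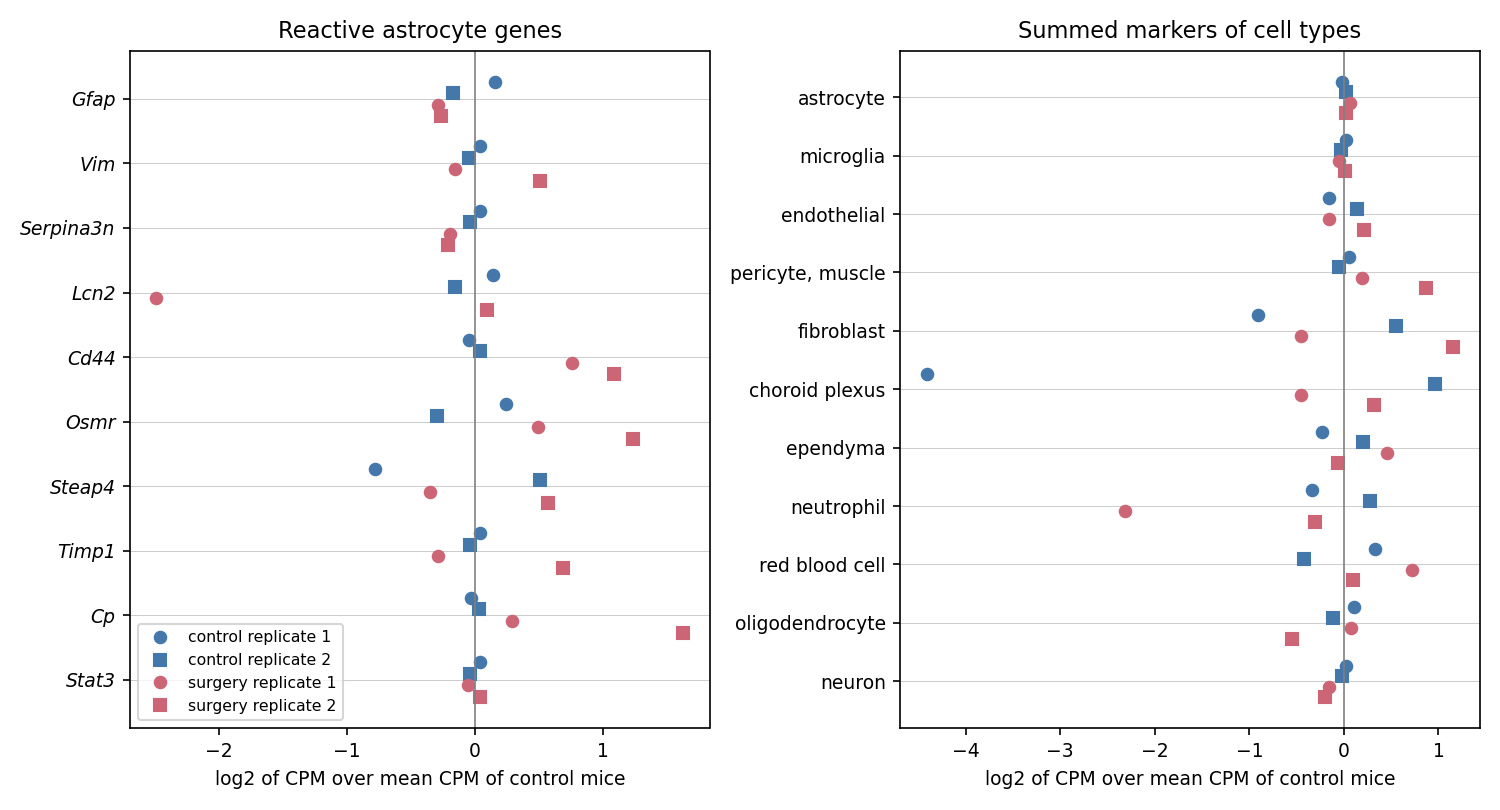
Level in each mouse over the control mean, as a log2 ratio, for the 10 genes (left) and for the summed CPM of marker lists of 11 cell types (right), with control mice in blue, surgery mice in red, circles for replicate 1 and squares for replicate 2. Lcn2 and the neutrophil markers were lowest in surgery mouse 1, the choroid plexus markers lowest in control mouse 1, and Cp, fibroblast and pericyte or smooth muscle markers highest in surgery mouse 2.

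The genes with the largest positive fold changes lay among those of low transcript GC content. Cp lay in the eighth of all genes lowest in GC, Osmr and Steap4 in the next and Cd44 in the one after, where 34.8%, 11.3% and 4.72% of all genes were called higher. Vim and Serpina3n lay in the fifth eighth, and Gfap, Lcn2, Timp1 and Stat3 in the sixth, where 0.561% and 0.374% of all genes were called higher. The median log2 fold changes of all genes in these 5 eighths were 0.60, 0.31, 0.18, -0.08 and -0.17. Cd44 (0.93), Osmr (0.92), Cp (1.11), Vim (0.22), Timp1 (0.29) and Stat3 (-0.01) were above the median of their eighth, and Gfap (-0.28), Serpina3n (-0.20), Lcn2 (-0.66) and Steap4 (0.18) below it. With the trend removed, 0 of the 10 genes were called by edgeR, where 0.888% of all genes were, and their median log2 fold change was 0.27, against 0.04 over all genes.

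**Figure D3:**
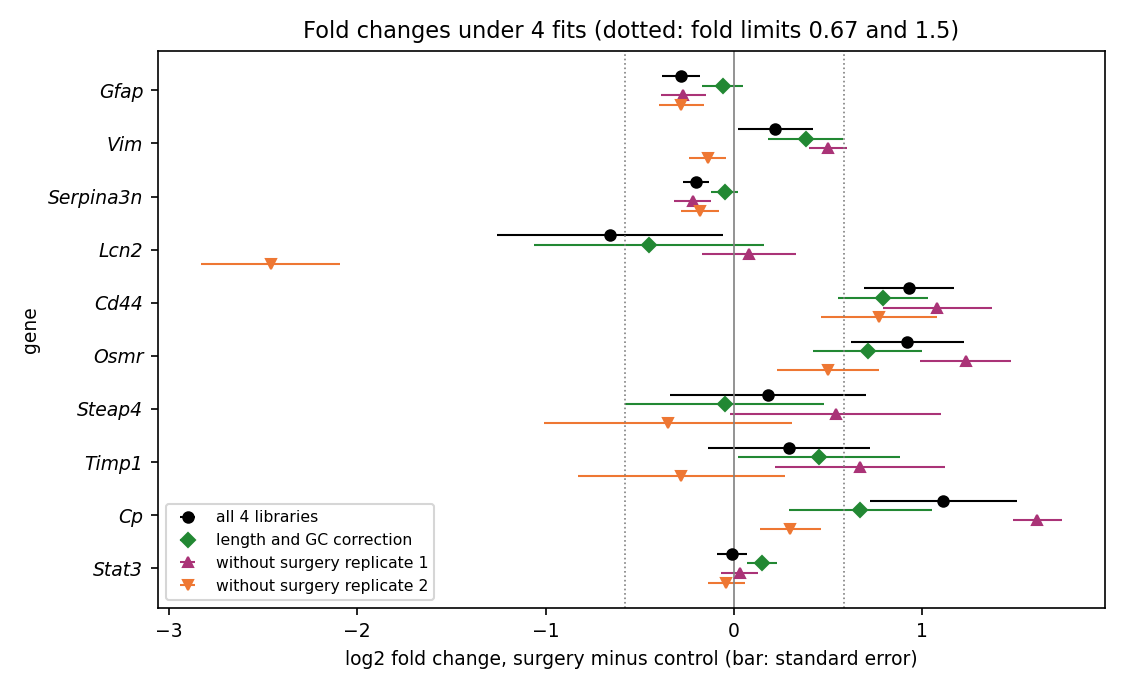
Log2 fold change of each gene with its standard error, from all 4 libraries, with the length and GC correction, and without either surgery mouse, with dotted lines at the fold limits. Cd44, Osmr and Cp stayed positive in all 4 fits, Gfap and Serpina3n negative, and Vim, Lcn2, Steap4, Timp1 and Stat3 changed sign.

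Other genes tied to reactive astrocytes also gave few calls, and the medians of their lists were positive with all 4 mice. Without surgery mouse 2 the medians were 0.03 for the other pan-reactive genes, -0.21 for the inflammation list, 0.07 for the ischemia list, -0.05 for the gp130, JAK and STAT genes and -0.18 for genes of the same families as the 10, and that of the families was also negative (-0.15) without control mouse 1. Without surgery mouse 1 the medians were 0.48, 0.93, 0.87, 0.22 and 0.52 in the same order. Among further genes that rise in astrocytes after several kinds of injury, 3 of 4 were tested, 0 were called by edgeR or DESeq2, 0 had an unadjusted p under 0.05 (9.01% and 39.4% of all genes tested by edgeR), and their median log2 fold change was 0.34. S1pr3, a receptor for sphingosine 1-phosphate, had 8.82 and 9.19 CPM in control mice against 12.1 and 10.7 CPM in surgery mice (log2 fold change 0.34, standard error 0.15, edgeR adjusted p = 0.15). Hspb1, a small heat shock protein, had a log2 fold change of 0.27, and 46.4% of its windows occur also in Hsp25-ps1. Cxcl10, a chemokine and the 1 gene of this list that was not tested, had 5 and 7 counts in control mice against 7 and 15 in surgery mice and was too low to test.

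Of 11 genes reported in astrocytes after systemic inflammation, all were tested. By edgeR 0 were called, 5 had an unadjusted p under 0.05 (39.4% of all genes tested did) and the median log2 fold change was 0.49, and DESeq2 called 0. Surgery mouse 2 was the highest in 9 of the 11. In CPM, which is not scaled by length, the highest were Fkbp5, a glucocorticoid-induced chaperone, with a log2 fold change of -0.27, and H2-D1, a class I histocompatibility gene, with 56.7 and 63.2 CPM in control mice against 41.4 and 73.1 CPM in surgery mice. Chosen after their values were seen, Iigp1 and Gbp2, both interferon-induced GTPases, and Serping1, an inhibitor of complement C1, had log2 fold changes of 1.72, 1.30 and 1.13 with standard errors of 0.52, 0.49 and 0.43. Their edgeR adjusted p-values were 0.054, 0.096 and 0.10. Their log2 fold changes were 0.99, 0.46 and 0.28 without surgery mouse 2, and 2.18, 1.81 and 1.64 without surgery mouse 1.

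Of 12 genes reported in astrocytes after ischemia, 9 were tested, 1 was called higher (6.75% of all genes tested) and the median log2 fold change was 0.52. The called gene was S100a10, the partner of annexin A2, with 6.50 and 6.62 CPM in control mice against 9.66 and 12.1 CPM in surgery mice. It rose by 0.73 on the log2 scale (standard error 0.18, edgeR adjusted p = 0.029, from 0.017 to 0.12 over the alternatives). Like Cd44, it lost the call by DESeq2 (adjusted p = 0.054), with no filter on low counts and with the length and GC correction (edgeR adjusted p = 0.091). With 1 mouse left out at a time, its log2 fold change ran from 0.57 to 0.88. The genes of this list with the highest CPM, not scaled by length, Ptgs2 (cyclooxygenase 2) and Tm4sf1, a membrane protein, had log2 fold changes of 0.17 and 0.11.

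The cytokine route to Stat3 was measured at its ligands, receptors, kinases and inhibitors. Of 24 genes, 20 were tested, 0 were called by edgeR or DESeq2 and 3 had an unadjusted p under 0.05, against 9.01% and 39.4% of all genes tested by edgeR. Their median log2 fold change was 0.11. Among the ligands, named after their values were seen, Ctf1, which encodes cardiotrophin 1, had 17 and 28 counts in control mice against 38 and 48 in surgery mice and the largest log2 fold change of the list, 1.04 (standard error 0.33, edgeR adjusted p = 0.063, from 0.018 to 0.24 over the alternatives). Its exons overlap those of Ctf2 on the opposite strand by 87 nt. Il6 and Osm were too scarce to compare. Il6 had 0 and 0 counts in control mice against 2 and 1 in surgery mice, and Osm, the ligand of the receptor encoded by Osmr, had 1 and 3 counts in control mice against 3 and 0 in surgery mice. Il6st, which encodes gp130, had 86.1 and 88.2 CPM in control mice against 90.4 and 99.1 CPM in surgery mice, with a log2 fold change of 0.12. For Jak1 the log2 fold change was 0.00 (standard error 0.06, edgeR adjusted p = 0.99).

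Without the fold limit, 2 genes of the route passed by edgeR, where 26.0% of all genes tested did. They were Jak2, a kinase of these receptors, with a log2 fold change of 0.53 (edgeR adjusted p = 0.0074), and Cntfr, the receptor subunit for ciliary neurotrophic factor, with -0.47 (edgeR adjusted p = 0.0091). With the length and GC correction their log2 fold changes were 0.27 and -0.10 (edgeR adjusted p = 0.14 and 0.45). Socs3, the feedback inhibitor that STAT3 induces and that was likewise chosen after its values were seen, had 3.66 and 4.21 CPM in control mice against 2.45 and 5.69 CPM in surgery mice. Its groups overlapped, and the log2 fold change was 0.06 (standard error 0.39, edgeR adjusted p = 0.93).

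Genes of the same families as the 10 gave 0 calls by edgeR and DESeq2 among 11 tested of 17 in the table, 2 with an unadjusted p under 0.05 (9.01% and 39.4% of all genes tested by edgeR), and a median log2 fold change of 0.19. Of the relatives of Timp1, the highest in CPM was Timp2 (333 and 408 CPM in control mice against 318 and 392 CPM in surgery mice), followed by Timp3 (45.7, 89.3, 59.2 and 102 CPM in the same order). Both were higher in replicate 2 of each group, and their groups overlapped. Timp4, named after its value was seen, was the 1 gene of this list with an adjusted p under 0.05, at a log2 fold change of -0.39 (standard error 0.09, edgeR adjusted p = 0.027), and was short of the fold limit. The 6 relatives of Serpina3n that were too low to test had at most 9 counts in any mouse.

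The astrocyte markers not tied to reactivity split in direction. Of 15 tested, 1 was called (9.01% of all genes tested), 6 had an adjusted p under 0.05 by edgeR without the fold limit (26.0% of all genes tested), and the median log2 fold change was 0.07. With the length and GC correction Aqp4 alone of these 6 stayed under 0.05. Aqp4, the water channel of astrocyte endfeet, rose from 86.0 and 70.1 CPM in the control mice to 133 and 127 CPM in the surgery mice, a log2 fold change of 0.73 (standard error 0.10, edgeR adjusted p = 0.0061). Its call held in every leave-one-out fit, by DESeq2 and with the length and GC correction (log2 fold change 0.64, edgeR adjusted p = 0.039). Slc1a2, the main glutamate transporter, was at 0.29 on the log2 scale (standard error 0.07, edgeR adjusted p = 0.023, and 0.14 with that correction), and Glul, glutamine synthetase, had 0.07. Aldoc and Aldh1l1, metabolic enzymes of astrocytes named after their values were seen, had -0.50 and -0.49 (edgeR adjusted p = 0.010 and 0.025), and with the length and GC correction -0.30 and -0.23.

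**Figure D4:**
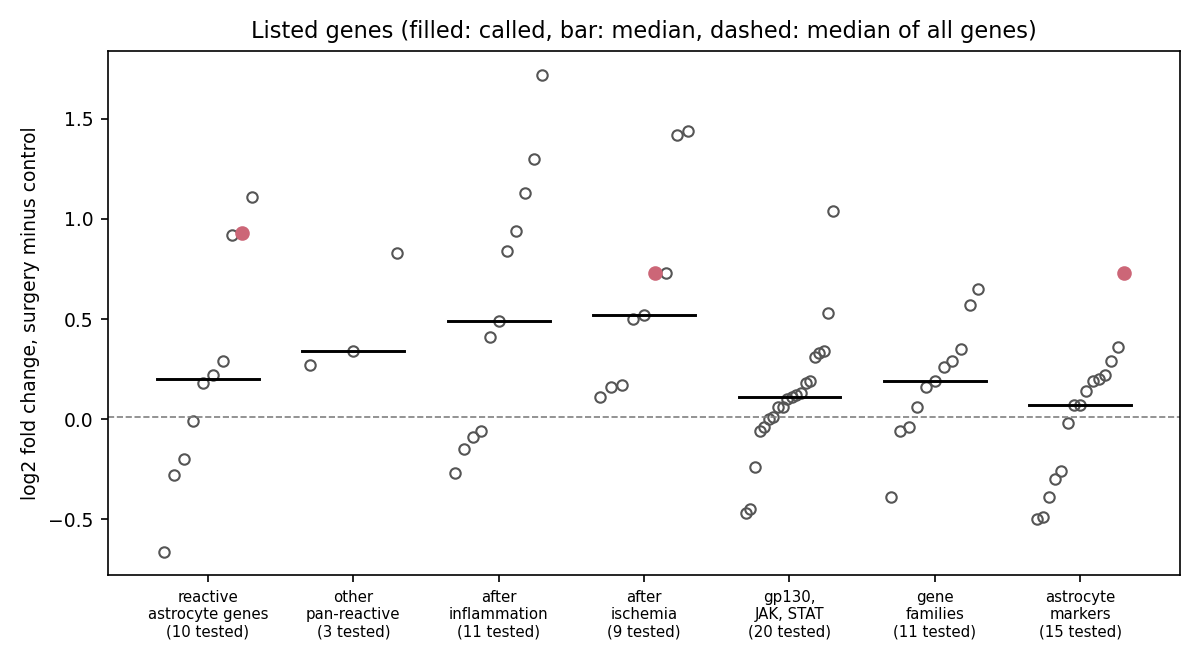
Log2 fold change of each tested gene in the 10 reactive astrocyte genes, 5 related lists and the astrocyte markers not tied to reactivity, with filled points for called genes, bars for list medians and a dashed line at the median of all genes (0.01). The called genes are Cd44, S100a10 and Aqp4, all higher, and the list medians lie between 0.07 and 0.52.

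The pattern of Gfap over the 4 mice was compared with that of every tested gene, as the Euclidean distance of log2 CPM after subtracting the control mean. The nearest genes were Zfp41 (distance 0.041), Trpc5 (0.044) and Amacr (0.048), with log2 fold changes of -0.28, -0.25 and -0.26. None of the other 9 genes was among these 3.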

How the data were processed

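Hippocampal poly(A) RNA of 2 control and 2 surgery mice was sequenced, and the authors deposited 1 table of raw counts per gene, one column per mouse, without normalization. The authors mapped the reads to mm10. The submitters' processing notes name Bowtie2 2.2.3, HISAT2 2.1.0, TopHat2 and HTSeq 0.6.0, and the use of strand is not given in the sources used here. The same table holds the authors' own comparison (mean signal, fold change, its log2 and p-values), which was not used.

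Counts were tested in R 4.3.3 with edgeR 4.0.16. Genes were kept by filterByExpr (minimum count 10), scaled by TMM and compared by the quasi-likelihood F test with condition as the only term and Benjamini-Hochberg adjustment over the 17144 genes tested. Total counts ran from 15763432 to 18573386, so that genes with under 10 counts per mouse were mostly untested. CPM per kilobase used the union of exons. The replicates differed by more than sampling noise (chi-square per degree of freedom 12.3 in control and 7.77 in surgery mice). Alternatives were DESeq2 1.42.0, other scalings, no filter, no fold limit, removal of each library's trends with transcript length and GC content (mgcv 1.9.3, 17120 genes), the replicate number as a block, and leaving out each mouse. Lengths, GC contents, overlaps and shared 75 nt windows came from GENCODE M21, which holds 29238 of the 29300 identifiers.

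The genes and lists were chosen with earlier results of these data known. Of 164 listed genes 163 were found in the table by name, and Serpina3k was not analysed here. Named in the text are the 10 genes, every called gene of a related list (up to 5) and its 2 tested genes with the highest mean CPM, and the 3 genes nearest to Gfap; others, including the marker genes of other cell types, were named after their values were seen. On simulated counts of 16806 genes for this comparison, with 200 genes changed 2-fold, edgeR recovered 178 with 7 false calls. Recovery was not split by count. It therefore gives no power for genes of low count such as Cd44, Lcn2, Steap4 and Timp1. With the length and GC correction 177 were recovered with 6 false calls, so the simulated counts lacked the loss of calls seen in the data. No error rate under the GC trend can be taken from them.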

Additional observations from a re-analysis of the deposited data

How the results depend on the processing

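Over 110 pairs of a gene and an alternative, 86 kept both direction and side of the threshold, 7 lost a call, 5 gained one and 12 changed sign. The number called among the 10 genes was 1, and it was 0 with no filter and with the length and GC correction. Leaving out 1 mouse at a time, the median log2 fold change of the 10 genes ran from -0.16 to 0.52. For the inflammation list (0 called) this range was 0 to 5, for the ischemia list (1 called) 0 to 3, for the gp130 list 0 to 1, for the gene families 0 to 2, for the other pan-reactive genes 0 to 1, and for the astrocyte markers (1 called) 1 to 4. The ischemia list had 0 calls with no filter, by DESeq2 and with the length and GC correction. Without the fold limit the gp130 list had 2 calls, the gene families 1 and the astrocyte markers 6.

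Replicate numbers are shared by the 2 groups, but the correlation of same-numbered deviations was 0.224 over only 2 pairs, so that the numbers are not taken to pair the mice. With the replicate block, edgeR called 1289 of all 17144 genes tested higher and 427 lower. In that fit 2 of the 10 genes were called (Cd44 and Cp, log2 fold change 1.00 for Cp), 4 of the inflammation list and 1 of the gp130 list. With the replicate block and the length and GC correction together, these were 0, 2 and 1, with 2 of the ischemia list, 2 of the gene families and 1 of the other pan-reactive genes.

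Stat3 turned to 0.04 with scaling by totals and to 0.15 with the length and GC correction, with or without the block, and Steap4 to -0.05 with that correction in both. Leaving out 1 mouse, the log2 fold change ran from -0.04 to 0.03 for Stat3, from -0.35 to 0.97 for Steap4, from -2.46 to 0.08 for Lcn2, from -0.14 to 0.50 for Vim and from -0.28 to 0.67 for Timp1. Over all genes, the calls (1158 higher, 386 lower) were 114 and 38 with the length and GC correction, 410 and 94 with the block added, 2249 and 2201 without the fold limit, and 742 and 229 without control mouse 2, and the lower calls alone were 224 with scaling by totals, 590 without surgery mouse 1 and 251 without surgery mouse 2. The causes were not tested. Where 1 mouse was left out, the lone mouse of its group is assumed to vary like the other group. At 12 to 31 counts per mouse for Steap4 and 14 to 29 for Timp1, differences of their fitted size were not detectable.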
